A study of Homo sapiens with 4 samples.

Results

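The 10 genes SLC2A1, SLC2A3, HK1, HK2, PFKFB3, PFKFB4, ALDOC, PGK1, LDHA and PDK1 carry out or steer glucose uptake and glycolysis, and they were found by their symbols among the 58735 genes of the deposited expression table. All 10 had a mean of at least 1 FPKM, as did 14429 genes of the table in all, and these 14429 genes were compared. FPKM counts fragments per kilobase of gene length and per 1000000 of a library size, which need not equal the fragments sequenced. Levels can be compared between genes as far as the gene length used fits the transcripts present.

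The RNA-seq data hold 4 libraries, 1 of adherent cells and 1 of spheroids for each of HCT116 and LOVO, which are lines of human colorectal cancer. Values given without further labels follow the order HCT116 adherent, HCT116 spheroid, LOVO adherent, LOVO spheroid. The labels give all 4 samples the genotype WT and the cell type colon cancer. The adherent cells were untreated and grew in RPMI-1640 with 10% serum. The spheroids carry a label of 1 mg/ml with no drug named, whereas the methods of the study give oxaliplatin, a platinum drug that damages DNA, at 1 μg/ml. The methods grew spheres for 2 weeks without serum, on surfaces that cells do not attach to, in DMEM/F12 with B27, N2 and 20 ng/ml each of bFGF and EGF. Growth form, medium and drug therefore changed together and cannot be told apart. Because each condition had 1 library, no replicate stands behind a difference within a line and no p-value was computed for it.

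Glucose enters the cell through transporters of the SLC2A family, is phosphorylated by hexokinases and is split and oxidized to pyruvate along glycolysis. PFKFB enzymes make and break fructose 2,6-bisphosphate, which activates phosphofructokinase. Lactate dehydrogenase reduces pyruvate to lactate, and PDK kinases keep pyruvate out of mitochondrial oxidation by inhibiting pyruvate dehydrogenase. In tumours many of these genes are known targets of the hypoxia-inducible factors (HIF), which bind DNA at sites with the core ACGTG or GCGTG.

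Each FPKM above 0 was a whole multiple, within 0.01, of the value of 1 read for that gene in 100% of cases, which gave back the reads behind it. The libraries held between 15483569 and 20429147 reads on genes, and the library sizes used for the FPKM were between 0.907 and 1.09 times these totals. In both adherent libraries the size was below the reads on genes. How the sizes were set is not given in the sources used here. The share of mitochondrial reads was 6.77%, 11.1%, 3.65% and 3.97%. The labelled cell type was checked against 10 markers of colon epithelium. In the HCT116 libraries 9 of the 10 had more than 3 reads, with summed levels of 1754 FPKM in adherent cells and 1288 FPKM in spheroids. Few reads lay behind VIL1 (6 and 11) and CDH17 (15 and 25) there, and CDX1 had 1 and 0. Most of the HCT116 sums came from KRT8 (571 and 418 FPKM), KRT18 (253 and 206 FPKM) and KRT19 (808 and 543 FPKM). In each LOVO library 5 of the 10 had more than 3 reads, and the sums were 327 and 187 FPKM. The defining markers EPCAM (0.930 and 1.499 FPKM) and CDH1 (13 reads and 1 read) were close to absent from LOVO, and CDX2 had 0 reads in both libraries, whereas the keratins KRT8 (189 and 81.6 FPKM) and KRT18 (122 and 98.8 FPKM) were well detected there. Of 8 markers of other cell types, 5 had more than 3 reads in each LOVO library, with sums of 20.4 and 22.7 FPKM, against 3 and sums of 5.77 and 16.3 FPKM in HCT116. Some of these counts rest on few reads. CD68 had 4 and 6 in LOVO, and 81.7% of its exonic bases also belong to another gene on the same strand. VWF was higher in HCT116 (36 and 58 reads) than in LOVO (7 and 14), as was PECAM1 in adherent cells (12 against 5). COL1A1 made up most of the HCT116 sums. The fibroblast gene DCN was at 10.4 and 9.97 FPKM in LOVO and at 0 reads in HCT116. Several markers also differed between spheroids and adherent cells. KRT20 was at 0.930 and 7.45 FPKM in HCT116 (log2 fold change 2.13) and COL1A1, a fibroblast collagen, at 5.51 and 15.5 FPKM (1.34). In LOVO the endothelial gene PECAM1 had 5 and 992 reads (2.83), while KRT8 (-1.20), KRT19 (14.9 and 4.85 FPKM, -1.44) and COL1A1 (9.89 and 6.10 FPKM, -0.62) were lower in spheroids. The LOVO libraries thus lack several of the markers that their label calls for, and LOVO is used below as the label only. The part of these marker differences in the results was not tested.

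The promoters of 4 of the 10 genes are shown because they set the gene that was highest above adherent cells in both lines (ALDOC) and another that was higher in both (PFKFB4) beside the most abundant genes, which differed little (LDHA and PGK1). They are RefSeq sequences of GRCh38.p14, 300 bases long, from 250 before to 50 after an annotated start, and are written 5′ to 3′ on the strand of the gene. Capitals mark ACGTG and GCGTG on either strand, so that CACGT and CACGC are the same letters read on the other strand, and the palindrome CACGTG holds ACGTG on both strands. LDHA has another promoter in the same set (chr11:18396101-18396400, plus strand), which holds 1 match and is not shown. Of those shown, ALDOC (chr17:28576846-28577145, minus strand) holds 5 matches, PFKFB4 (chr3:48556754-48557053, minus strand) holds 1, LDHA (chr11:18394313-18394612, plus strand) holds 6 and PGK1 (chrX:78103998-78104297, plus strand) holds 4.
ALDOC: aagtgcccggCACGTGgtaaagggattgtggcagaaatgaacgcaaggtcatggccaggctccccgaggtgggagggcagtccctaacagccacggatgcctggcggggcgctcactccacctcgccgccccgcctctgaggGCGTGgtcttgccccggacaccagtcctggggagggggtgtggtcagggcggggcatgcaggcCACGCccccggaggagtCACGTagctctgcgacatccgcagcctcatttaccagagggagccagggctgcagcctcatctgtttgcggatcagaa
PFKFB4: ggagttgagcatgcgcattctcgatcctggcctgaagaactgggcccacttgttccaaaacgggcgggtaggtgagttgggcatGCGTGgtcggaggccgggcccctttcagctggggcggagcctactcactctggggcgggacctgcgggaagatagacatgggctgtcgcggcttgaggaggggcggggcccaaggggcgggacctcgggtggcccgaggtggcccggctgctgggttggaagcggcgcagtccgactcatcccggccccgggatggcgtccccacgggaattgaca
LDHA: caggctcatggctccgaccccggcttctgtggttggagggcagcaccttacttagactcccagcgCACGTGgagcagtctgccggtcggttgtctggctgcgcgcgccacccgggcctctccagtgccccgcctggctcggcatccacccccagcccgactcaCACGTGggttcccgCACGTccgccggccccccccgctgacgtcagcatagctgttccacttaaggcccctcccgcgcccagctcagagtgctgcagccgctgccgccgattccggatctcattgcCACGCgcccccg
PGK1: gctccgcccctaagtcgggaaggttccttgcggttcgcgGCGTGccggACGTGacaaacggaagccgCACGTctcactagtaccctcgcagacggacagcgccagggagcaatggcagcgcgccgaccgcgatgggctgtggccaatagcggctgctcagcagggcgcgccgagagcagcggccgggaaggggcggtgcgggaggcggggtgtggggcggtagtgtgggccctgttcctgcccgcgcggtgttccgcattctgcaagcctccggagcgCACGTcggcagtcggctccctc

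The promoter table held 19 promoters for 9 of the 10 genes and none for SLC2A3. Either core was found in 13 of these promoters, against 48.4% of the 34796 distinct promoters in the table, and in at least 1 promoter of all 9 genes. The shares given here are per promoter, and no share per gene was computed to set beside the counts of genes. ACGTG was in 7 promoters of 6 genes (21.4% of all promoters), GCGTG in 11 promoters of 8 genes (36.4%) and CACGTG in 4 promoters of 4 genes (7.20%). HK1 alone had 7 of the 19 promoters, so the genes do not weigh equally in these counts. A match is a run of letters and does not show that a factor binds there. The 4 genes shown were picked with their levels and differences known, so their match counts are not set against those differences.

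Between spheroids and adherent cells, ALDOC showed the largest difference of the 10 genes in both lines, and PFKFB4 and SLC2A3 were also higher in both kinds of spheroids. HK1 and PFKFB3 were higher in LOVO spheroids and a little lower in HCT116 spheroids. The most abundant of the genes, LDHA and PGK1, differed by less than 0.3 on the log2 scale in either line. Fold changes are given on a log2(FPKM + 1) scale as spheroids less adherent cells, where the added 1 makes differences of weakly expressed genes smaller than they are, and ratios without the added 1 are given with a 95% exact (Clopper-Pearson) interval from the reads. These intervals compare libraries and cover counting error only. Reads of a PCR library without molecular identifiers are not independent molecules.

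**Figure D1:**
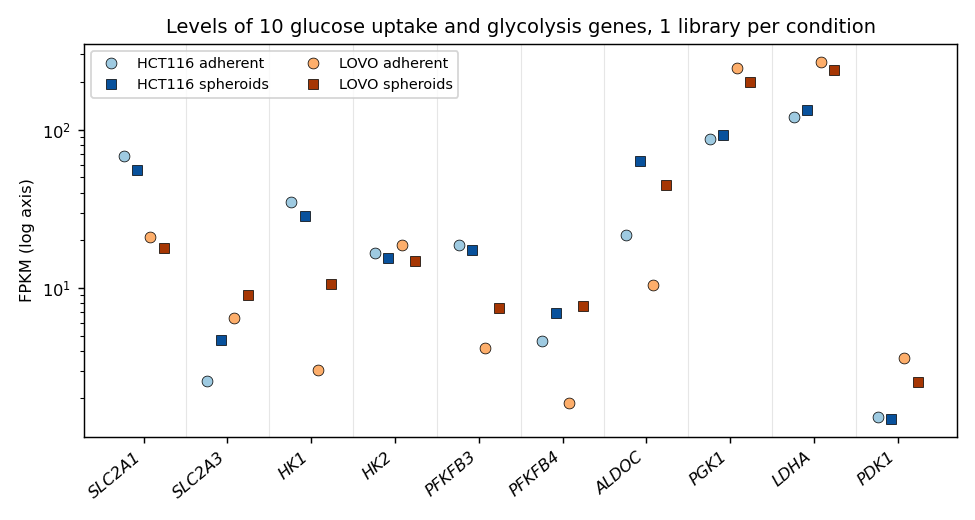
FPKM (log axis) of the 10 genes in the 4 libraries, with circles for adherent cells and squares for spheroids, and 1 point per library with no error bar. LDHA and PGK1 lie highest in each library, and ALDOC moves between 21.5 and 64.0 FPKM in HCT116 and between 10.5 and 44.5 FPKM in LOVO.

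Among the transporters, SLC2A1 (GLUT1) provides basal glucose uptake in most cells, and SLC2A3 (GLUT3) has a higher affinity for glucose. SLC2A1 (chromosome 1, 42925375 to 42959176, minus strand) was at 68.0 and 55.8 FPKM in adherent and spheroid HCT116 cells and 20.9 and 18.0 FPKM in adherent and spheroid LOVO cells. Both LOVO libraries were thus below both HCT116 libraries. Its log2 fold change was -0.28 in HCT116, with a log2 ratio between -0.34 and -0.23. In LOVO it was -0.20, with a log2 ratio between -0.31 and -0.12, and it moved to 0.0031 when the library size was set to the reads on genes.

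SLC2A3 (chromosome 12, 7919230 to 7936275, minus strand) ran the other way, with 2.56 and 4.66 FPKM in adherent and spheroid HCT116 cells and 6.47 and 9.07 FPKM in adherent and spheroid LOVO cells, from 322 to 1124 reads. The spheroids were higher in each line, and both LOVO libraries were higher than both HCT116 libraries. The log2 fold change was 0.67 in HCT116 (log2 ratio 0.65 to 1.07) and 0.43 in LOVO (0.35 to 0.62). SLC2A14, a close copy of SLC2A3, shares 15.3% of the 50-base stretches of SLC2A3 transcripts and had 8, 2, 1 and 0 reads in the 4 libraries. How reads that match both were counted is not given in the sources used here.

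Set against each other, SLC2A3 was at 0.0377 times the level of SLC2A1 in adherent HCT116 cells (95% counting interval 0.0336 to 0.0422) and at 0.0834 times in HCT116 spheroids (0.0758 to 0.0917). In LOVO the ratio was 0.310 in adherent cells (0.284 to 0.339) and 0.504 in spheroids (0.467 to 0.544). The 4 intervals do not overlap, but each covers only the counting error within its own library, and no replicate stands behind it. The sum of both transporters was 70.6 FPKM in adherent HCT116 cells and 60.5 FPKM in HCT116 spheroids, and in LOVO it was 27.3 and 27.1 FPKM.

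Hexokinases trap glucose in the cell as glucose 6-phosphate. HK1, the form found in most tissues (chromosome 10, 69269984 to 69401884, plus strand), was at 34.9 and 28.5 FPKM in adherent and spheroid HCT116 cells and 3.05 and 10.6 FPKM in adherent and spheroid LOVO cells. Its low value in adherent LOVO cells rests on 344 reads, and LOVO spheroids had 1344. The log2 fold change was 1.52 in LOVO (log2 ratio 1.63 to 1.98) and -0.28 in HCT116 (-0.36 to -0.23).

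HK2, the insulin-responsive form that many tumours express (chromosome 2, 74833981 to 74893359, plus strand), was at 16.6 and 15.5 FPKM in adherent and spheroid HCT116 cells and 18.6 and 14.8 FPKM in adherent and spheroid LOVO cells. These are the closest levels among the 10 genes, and the groups of the lines overlap. The log2 fold change was -0.31 in LOVO (log2 ratio -0.42 to -0.24) and -0.09 in HCT116, which moved to 0.02 with the library size set to the reads on genes.

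HK2 was at 0.475 times the level of HK1 in adherent HCT116 cells (0.451 to 0.501) and at 0.544 times in HCT116 spheroids (0.511 to 0.578). In adherent LOVO cells it was at 6.11 times the level of HK1 (5.44 to 6.87), and in LOVO spheroids at 1.40 times (1.30 to 1.499). Of these 2 genes, HK1 thus led in HCT116 and HK2 in LOVO, and the lead was smaller in LOVO spheroids. HKDC1, a further hexokinase gene, was at 2.10, 1.17, 3.69 and 2.10 FPKM, in adherent LOVO cells above HK1, and is not in the sums below. The sum of HK1 and HK2 was 51.5 and 44.0 FPKM in HCT116 adherent cells and spheroids, and 21.6 and 25.4 FPKM in LOVO.

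**Figure D2:**
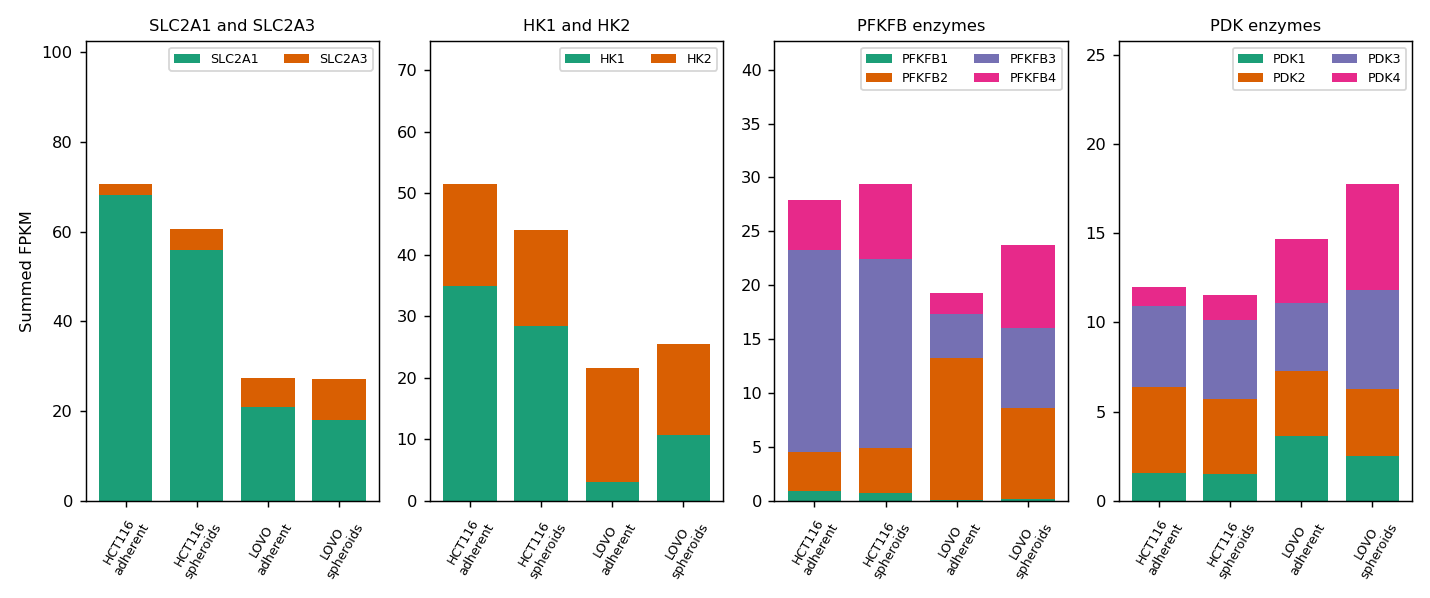
Summed FPKM of the genes shown for 4 steps in the 4 libraries, with each bar stacked by gene and starting at 0. HK1 is the larger part of the bar of HK1 and HK2 in HCT116 and HK2 in LOVO, and PFKFB2 makes up 68.6% of the PFKFB bar in adherent LOVO cells.

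PFKFB3, the form with the highest kinase over phosphatase activity (chromosome 10, 6144934 to 6254644, plus strand), was at 18.7 and 17.5 FPKM in adherent and spheroid HCT116 cells and 4.16 and 7.47 FPKM in adherent and spheroid LOVO cells. Both HCT116 libraries were above both LOVO libraries. Its log2 fold change was 0.72 in LOVO (log2 ratio 0.68 to 1.01) and -0.09 in HCT116, which moved to 0.02 with the library size set to the reads on genes.

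PFKFB4 (chromosome 3, 48517684 to 48562015, minus strand) was lower in level, with 4.64 and 6.98 FPKM in adherent and spheroid HCT116 cells and 1.86 and 7.68 FPKM in adherent and spheroid LOVO cells, from 204 to 944 reads. Both spheroid libraries were above both adherent libraries. The log2 fold change was 0.50 in HCT116 (log2 ratio 0.43 to 0.75) and 1.60 in LOVO (1.82 to 2.27). UCN2, a neighbour on the same strand, shares 4.73% of the exonic bases of PFKFB4, and it had 9, 33, 18 and 126 reads of its own. Its part in the PFKFB4 difference was not tested.

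The level of PFKFB4 was 0.248 times that of PFKFB3 in adherent HCT116 cells (0.226 to 0.272), 0.399 times in HCT116 spheroids (0.365 to 0.435), 0.448 times in adherent LOVO cells (0.378 to 0.529) and 1.03 times in LOVO spheroids (0.938 to 1.13). In LOVO spheroids the levels of both could not be told apart at this depth. PFKFB2, a form regulated by phosphorylation in the heart, was at 3.69, 4.20, 13.2 and 8.44 FPKM, and was 68.6% of all PFKFB FPKM in adherent and 35.5% in spheroid LOVO cells. The summed level of the 4 PFKFB genes was 27.9 and 29.4 FPKM in HCT116 and 19.2 and 23.7 FPKM in LOVO.

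ALDOC encodes aldolase C, the aldolase typical of brain, which splits fructose 1,6-bisphosphate (chromosome 17, 28573115 to 28577264, minus strand). It was at 21.5 and 64.0 FPKM in adherent and spheroid HCT116 cells and 10.5 and 44.5 FPKM in adherent and spheroid LOVO cells, from 550 to 3149 reads. Both spheroid libraries were above both adherent libraries. The spheroids were 2.98-fold above adherent cells in HCT116 and 4.25-fold above them in LOVO, with log2 fold changes of 1.53 (log2 ratio 1.48 to 1.67) and 1.99 (1.95 to 2.22). These values stood at percentile 99.4 and 98.1 of the genes compared in the same line. An antisense gene shares 10.1% of the exonic bases of ALDOC and had 0 reads in each library. ALDOA, the aldolase of most tissues, was listed at 3.20 to 7.92 FPKM, but 42.3% of its exonic bases also belong to another gene on the same strand, so the aldolases were not set against each other.

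PGK1, phosphoglycerate kinase, makes the first ATP of glycolysis (chromosome X, 77910739 to 78129296, plus strand). It was at 88.1 and 93.5 FPKM in adherent and spheroid HCT116 cells and 246 and 201 FPKM in adherent and spheroid LOVO cells. The lines did not overlap. The log2 fold change was 0.08 in HCT116 (log2 ratio 0.04 to 0.13) and -0.29 in LOVO (-0.32 to -0.27).

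LDHA, the lactate dehydrogenase subunit that favours lactate formation (chromosome 11, 18394388 to 18408425, plus strand), was at 119.9 and 134 FPKM in adherent and spheroid HCT116 cells and 269 and 239 FPKM in adherent and spheroid LOVO cells. It was the most abundant of the 10 genes in each library, and again the lines did not overlap. The log2 fold change was 0.16 in HCT116 (log2 ratio 0.13 to 0.19), and in LOVO it was -0.17 (-0.20 to -0.15), which moved to 0.03 as TPM (FPKM rescaled to the same sum in each library) and to 0.04 with the library size set to the reads on genes. The pseudogenes of LDHA held at most 0.153% as many reads as LDHA.

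PDK1, pyruvate dehydrogenase kinase (chromosome 2, 172555373 to 172608669, plus strand), had the lowest level of the 10 genes in each library but that of adherent LOVO cells. It was at 1.53 and 1.49 FPKM in adherent and spheroid HCT116 cells and 3.60 and 2.53 FPKM in adherent and spheroid LOVO cells. The log2 ratio in HCT116 had an interval of -0.24 to 0.16, and the log2 fold change of -0.02 moved to 0.01 when centred on the median gene and to 0.05 with the library size set to the reads on genes, so no difference could be seen at this depth. The LOVO spheroids were lower, with a log2 fold change of -0.38 (log2 ratio -0.65 to -0.37). Over PDK1 to PDK4 the summed level was 12.0 and 11.5 FPKM in HCT116 and 14.7 and 17.8 FPKM in LOVO. PDK1 was 24.5% of it in adherent and 14.2% in spheroid LOVO cells, while PDK4, a starvation-responsive kinase, was at 3.59 and 5.97 FPKM, or 24.4% and 33.6%.

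**Figure D3:**
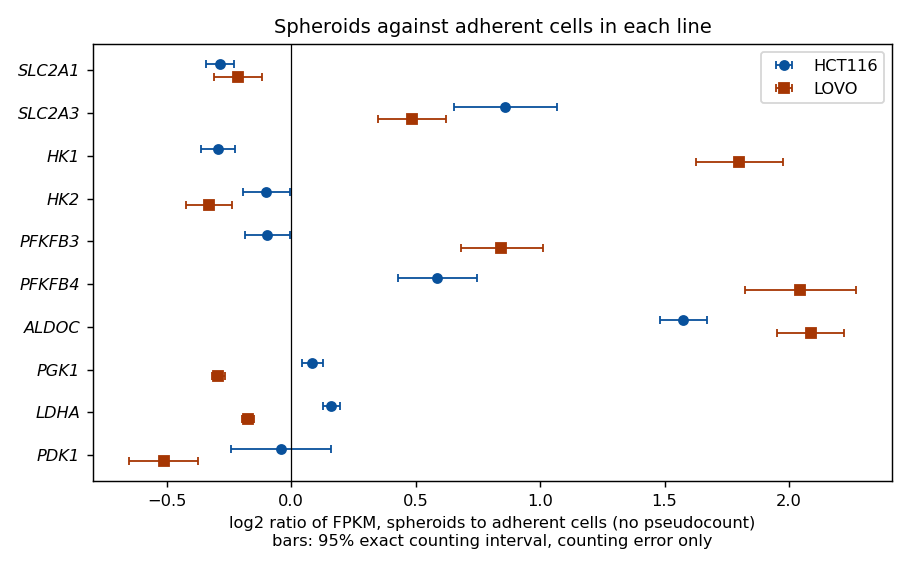
Log2 ratio of FPKM, spheroids to adherent cells, of the 10 genes in HCT116 and LOVO, with bars for the 95% exact counting interval of 1 library against 1. The interval of PDK1 in HCT116 holds 0, and HK2, PFKFB3 and PDK1 in HCT116 and SLC2A1 and LDHA in LOVO turn sign under another scaling.

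The methods of the study called genes in edgeR at a log fold change above 2 with a P under 0.05. Only the threshold of 2 was taken over here, on the log2(FPKM + 1) scale and without a p-value. None of the 10 genes was past it in HCT116 spheroids, where 0.201% of all genes were above 2 and 0.506% below -2. None was past it in LOVO spheroids, where 1.81% were above 2 and 0.943% below -2. ALDOC in LOVO lay just under the threshold, at 1.99, and this count of 0 rests on the added 1 and on the scaling. With a pseudocount of 0.01 ALDOC (2.09) and PFKFB4 (2.04) were above 2, as they were as TPM (2.26 and 2.08). Of all 14429 genes, 950 were above 2 in LOVO with that pseudocount and 661 as TPM, against 261 as deposited. ALDOC alone of the 10 was above 2 in LOVO under 4 other settings. There 748 of all genes were above 2 with a pseudocount of 0.1, 283 with TMM-style scaling and 333 with the library size set to the reads on genes. The centred values were not counted over all genes. In HCT116 none of these settings placed any of the 10 genes past 2. Past 1, the HCT116 spheroids had ALDOC alone, 1 of 10 against 2.19% of all genes, and the LOVO spheroids had 3 of 10, ALDOC, PFKFB4 and HK1, against 8.57%. None of the 10 was below -1, a range that held 3.33% of all genes in HCT116 and 7.85% in LOVO. The median log2 fold change of the 10 genes was 0.03 in HCT116 and 0.13 in LOVO, against -0.03 and -0.06 over all genes compared. With the library size set to the reads on genes the median of the 10 moved to 0.13 and 0.33 in HCT116 and LOVO, and the median over all genes to 0.05 and 0.08. As TPM the medians in LOVO were 0.35 for the 10 and 0.10 for all genes.

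Of the 10 genes, 3 were higher in HCT116 and in LOVO spheroids (SLC2A3, PFKFB4 and ALDOC), as were 27.2% of all genes. SLC2A1, HK2 and PDK1 were lower in both as deposited, as were 35.1% of all genes, but HK2 and PDK1 in HCT116 and SLC2A1 in LOVO turned sign under another scaling. The other 4, HK1, PFKFB3, PGK1 and LDHA, went in opposite directions, as did 35.8% of all genes, with PFKFB3 in HCT116 and LDHA in LOVO turning sign under another scaling.

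The lines were then taken as replicates of each other in a limma fit that had the line as a covariate and 1 residual degree of freedom. ALDOC had a log2 fold change of 1.76 ± 0.26 (SE) with an unadjusted limma p of 0.00138 and a Benjamini-Hochberg adjusted p of 0.462. PFKFB4 followed with 1.05 ± 0.35 (SE), an unadjusted limma p of 0.0328 and an adjusted p of 0.462. The limma adjusted p of the 10 genes ran from 0.462 to 0.994. None of the 14429 genes had an adjusted p under 0.05 (0%), and 1545 of them (10.7%) had an unadjusted p under 0.05, among them ALDOC and PFKFB4. No difference between spheroids and adherent cells in these 10 genes therefore passed the test.

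Between adherent cells of the lines, HK1 and PFKFB3 had the lowest values of LOVO against HCT116. HK1 was 11.5-fold lower in LOVO (log2 difference -3.15) and was the only one of the 10 genes below -2 as deposited, where 5.59% of all genes lay, against 5.26% above 2. The log2 ratio of PFKFB3 without the added 1 was -2.17 (-2.32 to -2.02). PFKFB3 was below -2 with the smaller pseudocounts, as TPM, when centred and with the library size set to the reads on genes. Below -1 were 3 of the 10 (HK1, PFKFB3 at -1.93 and SLC2A1 at -1.66) against 16.4% of all genes. Above 1 were 3 (PGK1 at 1.47, LDHA at 1.16 and SLC2A3 at 1.07) against 17.4%. The median of the 10 was -0.41, against 0.07 for all genes.

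Between the spheroids, HK1 was 2.68-fold lower in LOVO (-1.34), PFKFB3 was at -1.13 and SLC2A1 at -1.58, which makes 3 of the 10 below -1 against 15% of all genes. PGK1 (1.09) was the only one above 1, against 17.7% of all genes. None was past 2 in either direction, where 5.68% of all genes were above and 4.71% below. For PFKFB4 the log2 ratio between the spheroids lay between -0.00 and 0.28, and for HK2 between -0.16 and 0.03, so neither differed detectably at this depth. HK2 stood at -0.06 as deposited and at 0.17 on the TPM scale, on which the median of all genes was 0.26 in place of 0.04. The comparisons between lines use the same 4 libraries as those within lines, so they add no independent measurement.

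**Figure D4:**
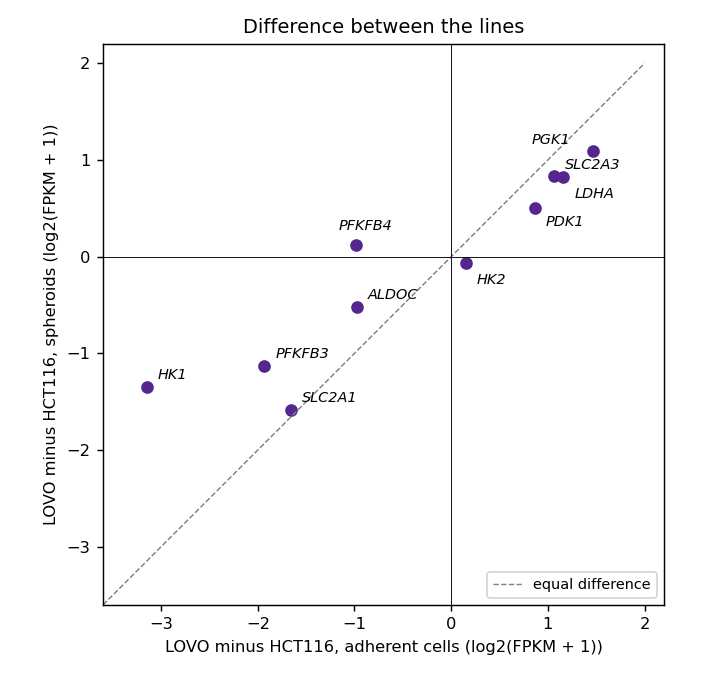
Difference in log2(FPKM + 1) between LOVO and HCT116 for the 10 genes, with adherent cells on the x axis and spheroids on the y axis, and the dashed line marking an equal difference. HK1 lies at -3.15 and -1.34, PFKFB3 at -1.93 and -1.13, and PFKFB4 at -0.98 and 0.12, while HK2, near 0 on both axes, turns sign between spheroids on the TPM scale.

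The order of the genes by level changed with these differences. LDHA and PGK1 led in each library. In adherent HCT116 cells SLC2A1 and HK1 came next, ahead of ALDOC, and in HCT116 spheroids ALDOC (64.0 FPKM) stood above SLC2A1 (55.8 FPKM). Each step in the order was larger than counting error except that between PFKFB4 and PFKFB3 in LOVO spheroids, and with 1 library per condition no other spread was measured. The gene length behind the FPKM is that of the exons of all annotated transcripts together, 14883 bases for PDK1 and 2928 for ALDOC. Which transcripts were present was not measured, so the order also depends on these lengths. In adherent LOVO cells PGK1 was 11.8 times as abundant as SLC2A1, the next gene, while HK1 and PFKFB4 came last. In LOVO spheroids PGK1 was 4.51 times as abundant as ALDOC, the next gene.

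Of 14 other glucose transporters, 6 were compared, and their log2 fold changes had a median of 0.24 in HCT116 and 0.39 in LOVO. None was past 1 in HCT116, where 2.19% of all genes were above 1, and 2 of the 6 were above 1 in LOVO, against 8.57%. SLC2A6, a transporter of lysosomal membranes, was at 5.68 and 10.8 FPKM in adherent and spheroid HCT116 cells and 0.599 and 26.6 FPKM in adherent and spheroid LOVO cells, with a log2 fold change of 4.11 in LOVO (log2 ratio 5.01 to 5.98) from 38 and 1894 reads. SLC2A4, the insulin-responsive transporter, went from 0.469 to 3.41 FPKM in LOVO, or 1.59, from 34 and 278 reads.

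Of 20 other glycolytic enzymes 15 were compared, of which 10 were below 0 in HCT116 and 12 in LOVO, against 53.4% and 53.5% of all genes, and their medians were -0.16 and -0.49. With the library size set to the reads on genes, a check of this list added after its values were seen, 8 and 12 were below 0, against 43.8% and 43.1% of all genes, and the medians were -0.04 and -0.28. The list as a whole was not tested. Only GAPDH was below -1 in both lines, with 872 and 417 FPKM in adherent and spheroid HCT116 cells and 870 and 388 FPKM in adherent and spheroid LOVO cells (-1.06 and -1.16). In LOVO GPI, the isomerase, went from 46.9 to 22.3 FPKM (-1.04) and PFKL, a phosphofructokinase, from 21.5 to 10.0 FPKM (-1.03). Calls past 1 or -1 here are for the values as deposited and were not repeated under another scaling. With the library size set to the reads on genes, the median over all genes in LOVO moved from -0.06 to 0.08. ENO2, the neuronal enolase, was the only one of these enzymes above 1, at 23.1 and 32.8 FPKM in HCT116 and 9.51 and 23.9 FPKM in LOVO (0.49 and 1.25). ENO1, at 448, 401, 724 and 611 FPKM, and PKM, at 226, 261, 415 and 297 FPKM, were the most abundant beside GAPDH.

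**Figure D5:**
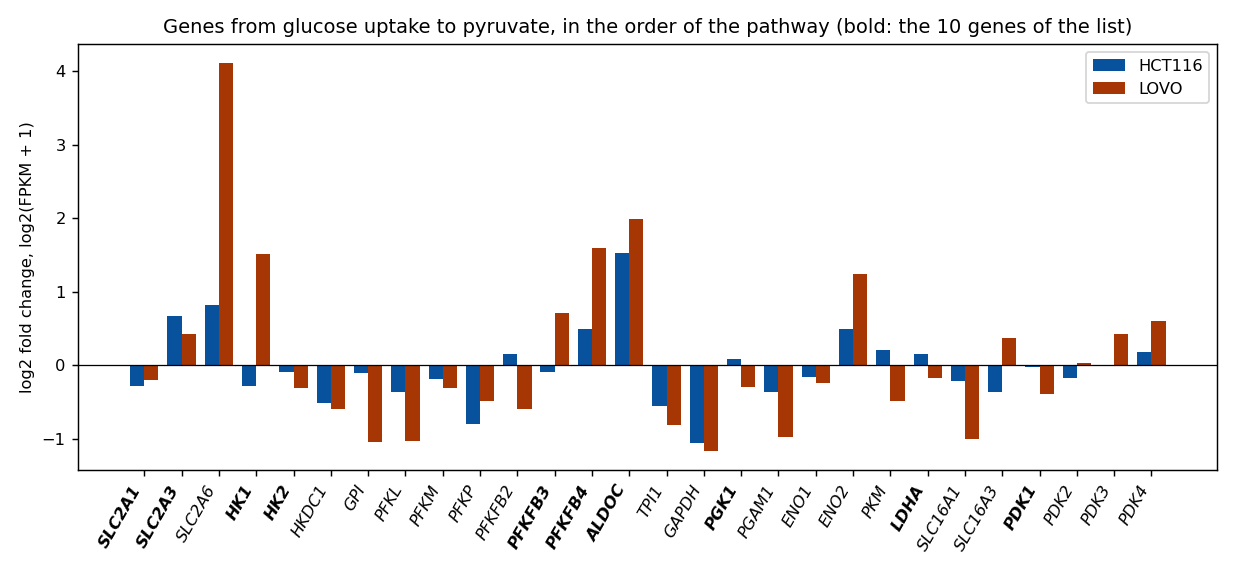
Log2 fold change (spheroids minus adherent cells, log2(FPKM + 1) scale) in HCT116 and LOVO for genes ordered from glucose uptake to pyruvate handling, with the 10 genes in bold and the others picked from the fixed lists with their values known. GAPDH lies at -1.06 and -1.16 beside ALDOC at 1.53 and 1.99, and HK2, PFKFB3 and PDK1 in HCT116 and SLC2A1 and LDHA in LOVO turn sign under another scaling.

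Of 18 genes of pyruvate and lactate handling, 17 were compared, none past 1 in HCT116. In LOVO 1 of the 17 was above 1, against 8.57% of all genes, and 3 were below -1, against 7.85%. These counts are for the values as deposited and were not repeated under another scaling, and the 3 lie close to -1. PDP2, a phosphatase that reactivates pyruvate dehydrogenase, went from 3.29 to 11.3 FPKM (1.52). The lactate carrier SLC16A1 went from 54.2 to 26.5 FPKM (-1.01) and DLD, a pyruvate dehydrogenase subunit, from 32.1 to 15.2 FPKM (-1.03). LDHB went from 14.4 to 5.998 FPKM (-1.14), but 33.4% of its exonic bases also belong to another gene on the same strand. SLC16A3, the carrier that exports lactate, was at 40.6, 31.2, 44.1 and 57.2 FPKM (-0.37 and 0.37). Of 7 gluconeogenic genes 3 were compared, and PCK2, the mitochondrial enzyme of that pathway, was at 22.1, 4.62, 72.4 and 4.88 FPKM (-2.04 and -3.64).

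Of 5 genes of glucose sensing through MondoA and ChREBP, all compared, 1 was above 1 in HCT116 spheroids (2.19% of all genes) and 2 in LOVO spheroids (8.57%). TXNIP, which restrains glucose uptake, was at 66.8 FPKM in adherent LOVO cells and 213 FPKM in LOVO spheroids (1.66), and had 1 read and 2 reads in HCT116, so no difference was detectable there. ARRDC4, its relative, was at 1.96 and 24.4 FPKM in HCT116 (3.10) and at 1.93 and 3.30 FPKM in LOVO (0.55). MLXIPL, which encodes ChREBP, was at 13.2 and 23.8 FPKM in HCT116 and at 2.06 and 7.77 FPKM in LOVO (0.80 and 1.52). MLXIP, which encodes MondoA, and MLX, the partner of both, ran from 6.94 to 9.33 FPKM and from 13.5 to 20.2 FPKM over the 4 libraries.

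Of 10 genes for HIF subunits and oxygen sensors, 8 were compared. None was past 1 in HCT116, and 3 of the 8 were above 1 in LOVO, against 8.57% of all genes. HIF1A was at 25.1 and 32.2 FPKM in HCT116 and at 100.1 and 269 FPKM in LOVO (0.35 and 1.42). EPAS1, the HIF-2 subunit, was at 17.0, 17.3, 45.7 and 41.7 FPKM. ARNT2 went from 0.598 to 65.4 FPKM in LOVO (5.38) and EGLN3, an oxygen sensor, from 1.07 to 9.99 FPKM (2.41). HIF is regulated mainly at the level of its protein, which was not measured here. Across both lines the smallest limma adjusted p over all 14429 genes was 0.462, so no gene of these other lists could lie below it.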

How the data were processed

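Total RNA was sequenced with a SMARTER mRNA-Seq kit. The authors deposited FPKM per gene for 4 libraries, with gene lengths. The labels list the mouse builds GRCm38 and mm10, but the human identifiers of the table were all found in GENCODE 29 (GRCh38), 58724 of 58735 with the same start and end. Aligner and counter are not given in the sources used here. The methods of the study name a count test, but the authors deposited FPKM, so limma on log2 values was used.

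Fold changes are differences of log2(FPKM + 1) over genes whose mean FPKM reached 1. Reads were recovered from the deposited FPKM, and 95% Clopper-Pearson intervals computed from them. Limma (version 3.58.1, R 4.3.3, trended empirical Bayes, cell line as covariate) used all 4 libraries. Scripts ran in Python 3.11.15 and were tested on simulated data. Overlap with other genes was taken from exons and from shared 50-base stretches of GENCODE 29 transcripts.

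The 10 genes and the other lists were chosen with earlier results of these data known. From the other lists, genes past a log2 fold change of 1 in either line were named, plus preset paralogs and levels and a few further genes for their levels. Alternatives were pseudocounts of 0.1 and 0.01, TPM, TMM-style scaling, centring on the median gene, library size equal to the reads on genes, a threshold of 1, no filter, a mean FPKM of at least 5, protein-coding genes only and, for limma, no cell line or no trend. The scalings were also applied to the median and the count below 0 of the other glycolytic enzymes, a choice made after seeing the data. Counts past 1 or -1 in the other lists were made on the values as deposited only. One item of the lists is not reported here.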

Additional observations from a re-analysis of the deposited data

Results flagged for a closer look

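In 4 of the 10 genes the spheroids differed from adherent cells in opposite directions in the 2 lines. On the log2(FPKM + 1) scale HK1 stood at -0.28 in HCT116 against 1.52 in LOVO, and PFKFB3 at -0.090 against 0.72. PGK1 stood at 0.084 in HCT116 against -0.29 in LOVO, and LDHA at 0.16 against -0.17. PFKFB3 in HCT116 and LDHA in LOVO turn sign under another scaling. Each line has 1 library per condition, so the difference between the lines was not tested. Opposite directions were also found in 35.8% of all genes compared.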

How the results depend on the processing

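Under the pseudocount and scaling alternatives 232 of 240 values of single genes kept their direction and 8 changed it, all named beside their values in the report. The count of the 10 genes past a log2 fold change of 2 depended on the setting. In LOVO spheroids none was above 2, but there were 1 with a pseudocount of 0.1, 2 with 0.01, 2 on the TPM scale, 1 with TMM-style scaling, 1 when centred, 1 with the library size set to the reads on genes and 3 at a threshold of 1. Of all 14429 genes, 261 were above 2 there as deposited, 748 and 950 with these pseudocounts and 661 on the TPM scale. The count was 283 with TMM-style scaling and 333 with that library size, and 8.57% were above 1. Centred values were not counted over all genes. In HCT116 spheroids 1 of the 10 genes was above a threshold of 1, against 2.19% of all genes. Below -2 in adherent LOVO against HCT116 there was 1 of the 10 genes (HK1), and 2 (HK1 and PFKFB3) with a pseudocount of 0.1 or 0.01, on the TPM scale, when centred or with that library size, and 3 at a threshold of 1, where 3 were above. Of all genes, 807 were below -2 as deposited, 1602 and 1684 with these pseudocounts, 1365 on the TPM scale and 856 with that library size. At a threshold of 1 the shares of all genes were 16.4% below and 17.4% above. Between spheroids 1 of the 10 was above and 3 below at a threshold of 1, against 17.7% and 15% of all genes. The median of the 10 genes moved from 0.03 to 0.13 in HCT116 with that library size. In LOVO it moved from 0.13 to 0.35 on the TPM scale, 0.33 with that library size and 0.43 with a mean FPKM of at least 5, which drops 1 gene. Between adherent cells it moved from -0.41 to -0.97 with that filter, and between spheroids from 0.03 to 0.26 on the TPM scale. Limma called 0 genes in each of its 9 alternatives, with 163 to 2431 genes at an unadjusted p under 0.05. The cell line covariate pairs the libraries by line, and without it the limma adjusted p of ALDOC moved from 0.462 to 0.99994. A block on replicate numbers could not be fitted, since the labels give none, and with 1 library per condition none could be left out. At this depth the counting intervals hold 0 for PDK1 in HCT116 and for HK2 and PFKFB4 between the spheroids.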
